A study of Mus musculus with 18 samples.

Results

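Textbook targets of the glucocorticoid receptor, namely Tsc22d3, Zbtb16, Klf15, Klf9, Dusp1, Sgk1, Cdkn1a, Errfi1, Glul and Hr, were followed through the quadriceps and the white fat of obese mice given prednisone. They were taken by gene symbol from general knowledge of the receptor. No rule on their levels in these libraries was applied, but earlier results of these data were known when they were chosen. All 10 were found among the 33641 gene symbols of the expression table. The mice were male wild-type DBA/2J animals of about 20 weeks of age, fed a high-fat diet for 12 weeks before the injections and for the 12 weeks of treatment. These diet weeks together exceed the stated age, so the age when the tissues were taken is not clear. Prednisone went in by intraperitoneal injection at 1 mg/kg, in 100 ul PBS from a stock in DMSO, either once weekly or once daily, and the controls received vehicle daily for the same time. The labels do not say whether the weekly mice received vehicle on the other days. Both tissues were taken from each mouse 24 hours after its last injection, which gave 3 weekly, 3 daily and 3 vehicle libraries per tissue, 18 in all, which by the numbers in the labels came from 9 mice. The series' design text counts 1 adipose library fewer for the daily regimen than the sample labels do, and all 3 labelled libraries were used.

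The glucocorticoid receptor (gene Nr3c1) is a nuclear receptor that stays in the cytoplasm until it binds a steroid. It then moves to the nucleus, binds glucocorticoid response elements, which are inverted repeats of AGAACA-like half-sites around a gap of 3 bases, and raises or lowers transcription nearby. Prednisone itself is an inactive prodrug, and the enzyme encoded by Hsd11b1 reduces it to the active prednisolone. In muscle the receptor is known for genes of amino acid release and fibre wasting, and in fat for genes of lipid handling and of fat cell differentiation.

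The letters of the response element can be looked for in the promoters. RefSeq promoter entries for GRCm38.p6 were at hand for 8 of the 10 genes, with 17 promoters among them. The 4 shown are those of both main Sgk1 transcripts, since Sgk1 alone of the 8 held the full inverted repeat, and of Klf9 and Cdkn1a, which changed with a regimen. Each is the 250 bases before a start site, 5′ to 3′ on the gene's strand, with AGAACA, its reverse complement TGTTCT and the inverted repeat in capitals.
Sgk1, transcript Sgk1-202, plus strand, chr10:21993640-21993889: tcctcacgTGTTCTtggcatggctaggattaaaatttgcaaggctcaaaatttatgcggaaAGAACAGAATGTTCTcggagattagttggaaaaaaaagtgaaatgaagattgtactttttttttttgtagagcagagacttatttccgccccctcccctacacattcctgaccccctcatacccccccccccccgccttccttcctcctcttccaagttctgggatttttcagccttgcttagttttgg
Sgk1, transcript Sgk1-201, plus strand, chr10:21994416-21994665: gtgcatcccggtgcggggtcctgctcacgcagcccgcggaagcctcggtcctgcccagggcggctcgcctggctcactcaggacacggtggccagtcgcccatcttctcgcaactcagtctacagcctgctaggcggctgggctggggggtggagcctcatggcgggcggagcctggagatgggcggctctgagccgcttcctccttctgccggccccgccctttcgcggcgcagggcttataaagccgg
Klf9, plus strand, chr19:23140976-23141225: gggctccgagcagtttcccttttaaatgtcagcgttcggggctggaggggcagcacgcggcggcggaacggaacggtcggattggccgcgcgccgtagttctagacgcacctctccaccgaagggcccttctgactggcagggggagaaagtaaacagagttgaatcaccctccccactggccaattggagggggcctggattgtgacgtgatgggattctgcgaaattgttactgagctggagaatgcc
Cdkn1a, transcript Cdkn1a-201, plus strand, chr17:29093519-29093768: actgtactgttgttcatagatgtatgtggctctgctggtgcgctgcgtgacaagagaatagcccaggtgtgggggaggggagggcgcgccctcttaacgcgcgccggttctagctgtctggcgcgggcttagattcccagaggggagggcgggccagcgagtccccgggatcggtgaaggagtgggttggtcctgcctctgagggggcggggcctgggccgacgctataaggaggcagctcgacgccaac
The inverted repeat, AGAACA and TGTTCT with any 3 bases between them, reads the same on both strands and stood in 3 of all 32851 promoters of the table, or 0.00913%. The letters in Sgk1 were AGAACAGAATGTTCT at chr10:21993701-21993715, which is 189 bases before the start of Sgk1-202 and 965 bases before that of Sgk1-201. A looser form (G, any base, ACA, any 3 bases, TGT, any base, C), also palindromic and lying within the stricter one at that place, was found in 156 promoters (0.475%), again with Sgk1 the single one of the 8 genes searched. The hexamer AGAACA on either strand, counted over 250 bases before to 50 after each start, was in 6233 promoters (19.0%) and in 4 of the 17 promoters of these genes, which belong to Tsc22d3 and Sgk1. Klf9 and Cdkn1a held none of these letters in this window. A match of letters is a description and not a binding site, and many known response elements lie far from promoters.

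Levels are given as TPM, transcript abundance scaled to a fixed sum in each library, the unit of the deposited table, summed over the transcripts of a gene. Differences are on the scale of log2(TPM + 1), which understates changes of low genes, with limma's standard error (SE), and a gene was called when its Benjamini-Hochberg adjusted p was under 0.05 over all genes tested in that comparison (12246 in muscle, 14150 in adipose tissue). All 10 genes passed the filter on low values in both tissues (1 TPM or more in 3 or more of the 9 libraries). Summed TPM of 8 muscle genes ran at 93547 to 111208 in the 9 muscle libraries. In adipose tissue 8 adipocyte genes summed to 33775 to 37563 TPM, so each tissue carried its own markers. Muscle transcripts were higher in 3 adipose libraries, weekly 2 (1339 TPM), weekly 3 (978 TPM) and daily 2 (824 TPM), than in the other 6 (135 to 223 TPM). In 42.3% to 55.8% of genes with a mean of at least 10 TPM, by group, the third library lay between the other 2, where an equal share is 33.3%, and for the 10 genes this held in 45 of 60 sets of 3 libraries. Whether the third libraries are independent of the other 2 was not tested. If they are not, n would be 2, and the SD, SE and p printed here would be too small. Regimen calls are therefore also given without the third libraries and, in adipose tissue, without those 3, which leaves a single weekly library (weekly 1) whose spread is assumed to be that of the others. Depth is unknown from TPM, and error was the spread between libraries labelled as separate mice.

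In mice given vehicle, the 10 genes ranged from 7.82 TPM (Zbtb16) to 116 TPM (Tsc22d3) in muscle and from 11.2 TPM (Zbtb16) to 234 TPM (Glul) in adipose tissue. Their order differed between the tissues: Tsc22d3, Sgk1 and Dusp1 led in muscle, and Glul, Cdkn1a and Tsc22d3 in adipose tissue. Within muscle, neighbours such as Klf9 (37.3 ± 2.87 TPM) and Glul (33.5 ± 3.77 TPM), or Cdkn1a (23.3 ± 3.34 TPM) and Hr (23.0 ± 1.38 TPM), lay within each other's spread (SD, n = 3). Of the 10, 9 were called between the tissues, 3 higher and 6 lower in muscle, where 87% of all 11737 genes tested in both tissues were called, 13.1% as higher and 73.9% as lower in muscle, and their median was -0.88. The median of the 10 was -0.39.

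Glul (chromosome 1, 153899944 to 153909723, plus strand, GRCm38) encodes glutamine synthetase, the enzyme that makes glutamine from glutamate and ammonia. It read 37.7, 30.3 and 32.6 TPM in vehicle muscle, against 212, 253 and 238 TPM in vehicle adipose tissue (log2 difference -2.77, SE 0.12, limma adjusted p = 1.8e-08). Cdkn1a, which encodes a cyclin-dependent kinase inhibitor that halts the cell cycle, read 26.8, 20.1 and 23.2 TPM in muscle, against 149.7, 138 and 146 TPM in adipose tissue (-2.59, SE 0.10, limma adjusted p = 9.03e-09). Both were far apart between the tissues, with no overlap. Sgk1 (chromosome 10, 21882184 to 21999903, plus strand), a kinase that controls ion channels and cell survival, went the other way, with 70.4, 51.5 and 62.0 TPM in muscle, against 20.8, 16.4 and 16.8 TPM in adipose tissue (1.71, SE 0.11, limma adjusted p = 2.04e-07). Klf9, a Krüppel-like transcription factor, was also higher in muscle (0.80), as was Tsc22d3 (0.22). Klf15, a related factor of amino acid and lipid metabolism, was lower in muscle (-1.15), as were Hr, a nuclear corepressor and histone demethylase (-0.77), Zbtb16, a zinc finger repressor of transcription (-0.44), and Dusp1, a phosphatase that switches off MAP kinases (-0.27). Errfi1, a feedback inhibitor of the epidermal growth factor receptor, was not called (-0.35, limma adjusted p = 0.0629). The calls of Zbtb16, Dusp1 and Tsc22d3 were the weak ones. Without the third libraries their limma adjusted p were 0.222, 0.180 and 0.0730. Under TMM scaling Tsc22d3 had a limma adjusted p of 0.167. That scaling was done within each tissue, so it does not correct for a difference in RNA composition between muscle and fat. Summed adipocyte genes in the vehicle muscle libraries reached 3.45% to 4.70% of their mean in vehicle fat, and summed muscle genes in the vehicle fat libraries 0.130% to 0.214% of their mean in vehicle muscle. In daily muscle the adipocyte genes reached 4.77%, 1.82% and 2.90% of their mean in vehicle fat, and in weekly muscle 3.00%, 4.07% and 3.49%. Limma called 0 of these 8 genes between daily and vehicle muscle, where 13.7% of all genes were called. The 8 ranged from -0.83 to -0.35 with a median of -0.52, against -0.09 over all genes. Their part in the muscle levels of the 10 genes was not tested.

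**Figure D1:**
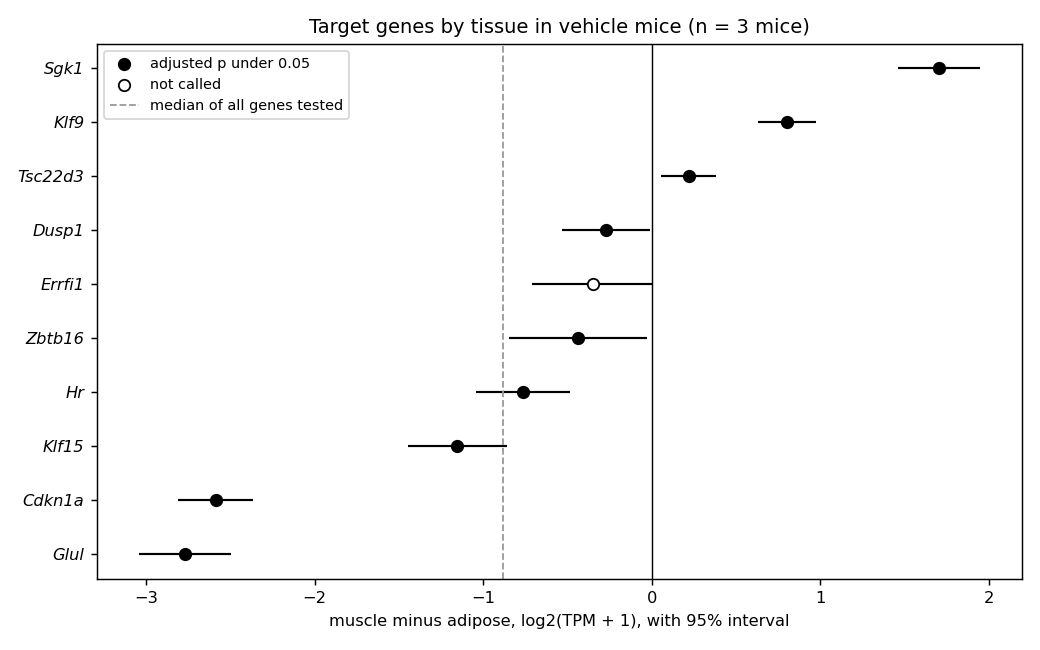
Difference between quadriceps muscle and white adipose tissue in vehicle mice for each of the 10 genes, as muscle minus adipose on the log2(TPM + 1) scale with the 95% interval (3 mice). Sgk1, Klf9 and Tsc22d3 lie right of 0 and Glul and Cdkn1a far to the left, and the dashed line marks the median of all genes tested, -0.88.

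Daily prednisone changed 3 of the 10 genes in muscle, with Cdkn1a higher and Hr and Klf9 lower than after vehicle. In that comparison 13.7% of all genes tested were called, 1.91% as higher and 11.8% as lower. Tsc22d3, Zbtb16, Klf15, Dusp1, Sgk1, Errfi1 and Glul were not called. The median of the 10 was -0.13, against -0.09 over all genes. Because these are whole tissues, a lower level from fewer cells of a type and one from less RNA per cell cannot be told apart.

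Hr (chromosome 14, 70552212 to 70573548, plus strand, GRCm38) gave the clearest pattern of the 10. It read 26.0, 22.5 and 25.8 TPM in weekly muscle, 13.0, 15.6 and 15.5 TPM in daily muscle, and 22.9, 24.5 and 21.7 TPM in vehicle muscle. Every daily library lay below every other one, while the weekly and vehicle libraries overlapped. Hr fell by 0.62 after the daily regimen relative to vehicle (SE 0.09, limma adjusted p = 0.00399) and was higher by 0.72 in weekly than in daily muscle (SE 0.09, limma adjusted p = 0.00536). Both calls held when any 1 library was left out (limma adjusted p 0.00897 to 0.0239 and 0.0103 to 0.0393). Without the third libraries the sizes were -0.69 and 0.73, and neither passed (0.115 and 0.314). In adipose tissue Hr read 42.5, 44.9 and 49.9 TPM after weekly, 39.0, 43.8 and 36.7 TPM after daily and 29.9, 49.4 and 42.6 TPM after vehicle. These groups all overlapped, and no comparison was called.

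Cdkn1a (chromosome 17, 29090976 to 29100727, plus strand) moved in the opposite direction. Its levels were 28.1, 30.3 and 28.6 TPM in weekly muscle, 42.2, 34.9 and 38.1 TPM in daily muscle, and 26.8, 20.1 and 23.2 TPM in vehicle muscle. The regimens did not overlap at all, with weekly libraries between daily and vehicle ones. Cdkn1a rose by 0.70 after daily prednisone relative to vehicle (SE 0.10, limma adjusted p = 0.00455), and leaving out any 1 library kept the call (0.00769 to 0.0279). Without the third libraries the difference was 0.70 and the limma adjusted p 0.147. The weekly mice stood 0.31 above vehicle (SE 0.10, limma adjusted p = 0.224) and 0.39 below daily (-0.39, SE 0.10, limma adjusted p = 0.0969), neither of which passed. Cdkn1a is also a classic target of p53 and of muscle differentiation. Of 10 listed p53 targets, among them Mdm2 and Ccng1, limma called 0 in any regimen comparison in either tissue. In daily against vehicle muscle 3 of these targets had an unadjusted p under 0.05, as did 3676 of all 12246 genes tested. Their median there was 0.03, against -0.09 over all genes. Of 8 genes of muscle regeneration, 7 rose in daily muscle relative to vehicle, with a median of 1.59, where 1.91% of all genes were called as higher. Under TMM scaling 6 rose, and without the third libraries 1 of the 7 that could be tested. Both lists were chosen with earlier results of these data known, so their counts are descriptions only. Myog, a regeneration gene that drives myoblast differentiation, averaged 26.7 ± 4.40 TPM in daily muscle and 8.07 ± 1.13 TPM in vehicle muscle (SD, n = 3 each). The summed regeneration genes were 113 to 144 TPM in daily and 52.0 to 59.3 TPM in vehicle muscle, and the summed macrophage genes 296 to 438 TPM in daily and 168 to 243 TPM in vehicle muscle. Of 6 macrophage genes, 2 were called as higher, Lyz2 and Cd68, and the 6 ranged from -0.09 to 1.16 with a median of 0.37. Without the third libraries neither passed (limma adjusted p = 0.121 for Lyz2 and 0.208 for Cd68). The part of regeneration and macrophage genes in the rise of Cdkn1a was not tested.

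Klf9 (chromosome 19, 23141226 to 23168134, plus strand) read 40.1, 35.1 and 36.2 TPM in weekly muscle, 27.3, 31.7 and 28.6 TPM in daily muscle, and 35.0, 40.5 and 36.4 TPM in vehicle muscle. The daily libraries were the 3 lowest. The fall of 0.34 relative to vehicle passed (SE 0.08, limma adjusted p = 0.0234), but it rested on single libraries. The limma adjusted p was 0.0543 without daily 1, 0.0910 without daily 3, 0.0753 without vehicle 2 and 0.0524 without vehicle 3. It was -0.24 with an adjusted p of 0.113 under TMM scaling, -0.35 with 0.264 without the third libraries, and -0.34 with 0.0518 when fitted among transcripts. The weekly level was 0.34 above daily (SE 0.08, limma adjusted p = 0.0737).

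The other 7 genes were not called in muscle after daily prednisone. Tsc22d3 (chromosome X, 140539528 to 140600659, minus strand) encodes the anti-inflammatory leucine zipper protein GILZ and is among the most steroid-responsive genes known. It read 109, 107 and 104 TPM in weekly muscle, 101, 111 and 105 TPM in daily muscle, and 112, 123 and 113 TPM in vehicle muscle. Both prednisone groups lay below the vehicle group with no overlap, by less than 1 TPM in the daily group. Daily and vehicle muscle did not overlap in 33.8% of all genes and in 4 of the 10, with Tsc22d3, Klf9 and Hr below and Cdkn1a above. The daily difference was -0.13 (95% interval -0.25 to -0.01, limma adjusted p = 0.146) and the weekly one -0.11 (-0.24 to 0.01, limma adjusted p = 0.359). For Sgk1 the groups overlapped throughout, at 66.9, 56.2 and 59.5 TPM in weekly, 47.7, 77.3 and 63.9 TPM in daily and 70.4, 51.5 and 62.0 TPM in vehicle muscle, and its daily difference of 0.02 had a 95% interval of -0.36 to 0.40. The signalling inhibitors Dusp1 and Errfi1 and the enzyme gene Glul also had daily intervals that included 0, of -0.26 to 0.12, -0.17 to 0.27 and -0.36 to 0.11.

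**Figure D2:**
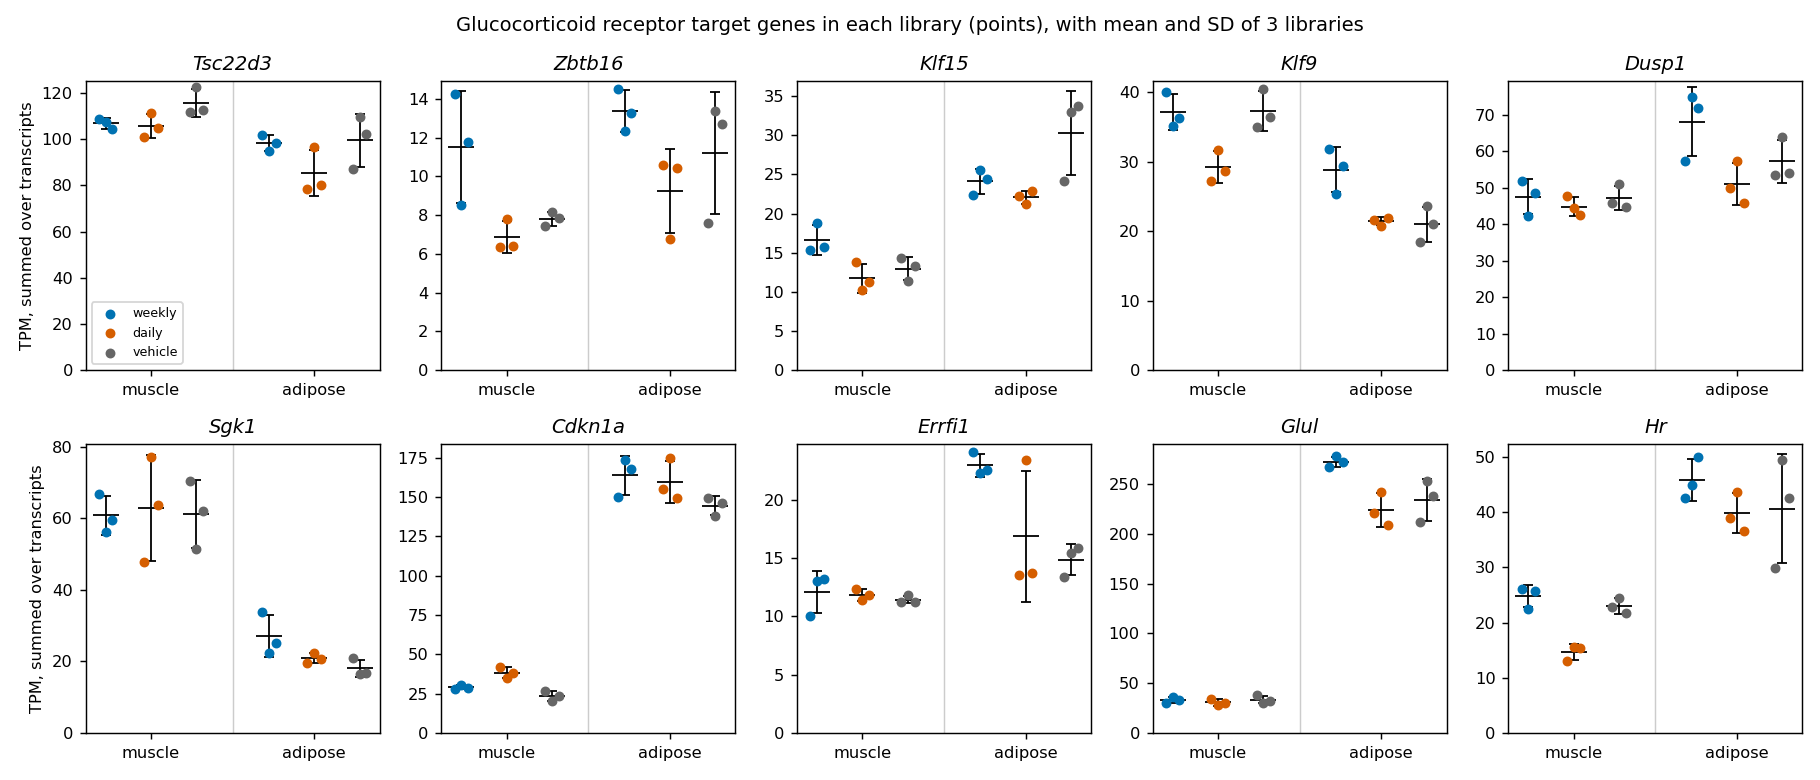
TPM of each of the 10 genes in every library (points) with the mean and SD of 3 libraries, for the weekly, daily and vehicle groups, in muscle (left in each panel) and adipose tissue (right). In muscle the daily libraries are the lowest for Hr and Klf9 and the highest for Cdkn1a. In adipose tissue the weekly libraries are the highest for Klf9, Glul and, by a small margin, Sgk1.

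After weekly prednisone 0 of the 10 genes were called in muscle relative to vehicle, where limma called 0.049% of all genes (6 genes). At an unadjusted p under 0.05 the numbers were 3 of the 10 and 1891 of 12246. Zbtb16 (chromosome 9, 48654297 to 48836222, minus strand) read 14.3, 8.51 and 11.8 TPM in weekly muscle, against 7.45, 8.16 and 7.84 TPM in vehicle muscle. Klf15 (chromosome 6, 90462576 to 90475238, plus strand) read 15.3, 18.9 and 15.7 TPM in weekly muscle, against 14.3, 11.4 and 13.3 TPM in vehicle muscle. All weekly values of both genes lay above all vehicle values, which was so, in either direction, for 23% of all genes and for 4 of the 10, the other two being Cdkn1a above and Tsc22d3 below. The differences were 0.48 for Zbtb16 (SE 0.15, limma adjusted p = 0.215) and 0.33 for Klf15 (SE 0.12, limma adjusted p = 0.261).

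Set directly against each other in muscle, the regimens differed for 1 of the 10 genes, Hr, with 1.77% of all genes called and 0.915% called as higher after weekly. The 3 transcription factors Zbtb16, Klf15 and Klf9 were higher in all weekly than in all daily libraries, and so was Hr. Daily muscle read 6.35, 7.81 and 6.42 TPM for Zbtb16 and 13.8, 10.2 and 11.2 TPM for Klf15. With Cdkn1a, lower in all weekly libraries, 5 of the 10 genes did not overlap between the regimens, against 23.3% of all genes. The differences of 0.65 for Zbtb16 (SE 0.15, limma adjusted p = 0.0737) and 0.47 for Klf15 (SE 0.12, limma adjusted p = 0.0967) did not pass. Zbtb16 passed without weekly 2, the lowest weekly library, at 0.83 (limma adjusted p = 0.0202).

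**Figure D3:**
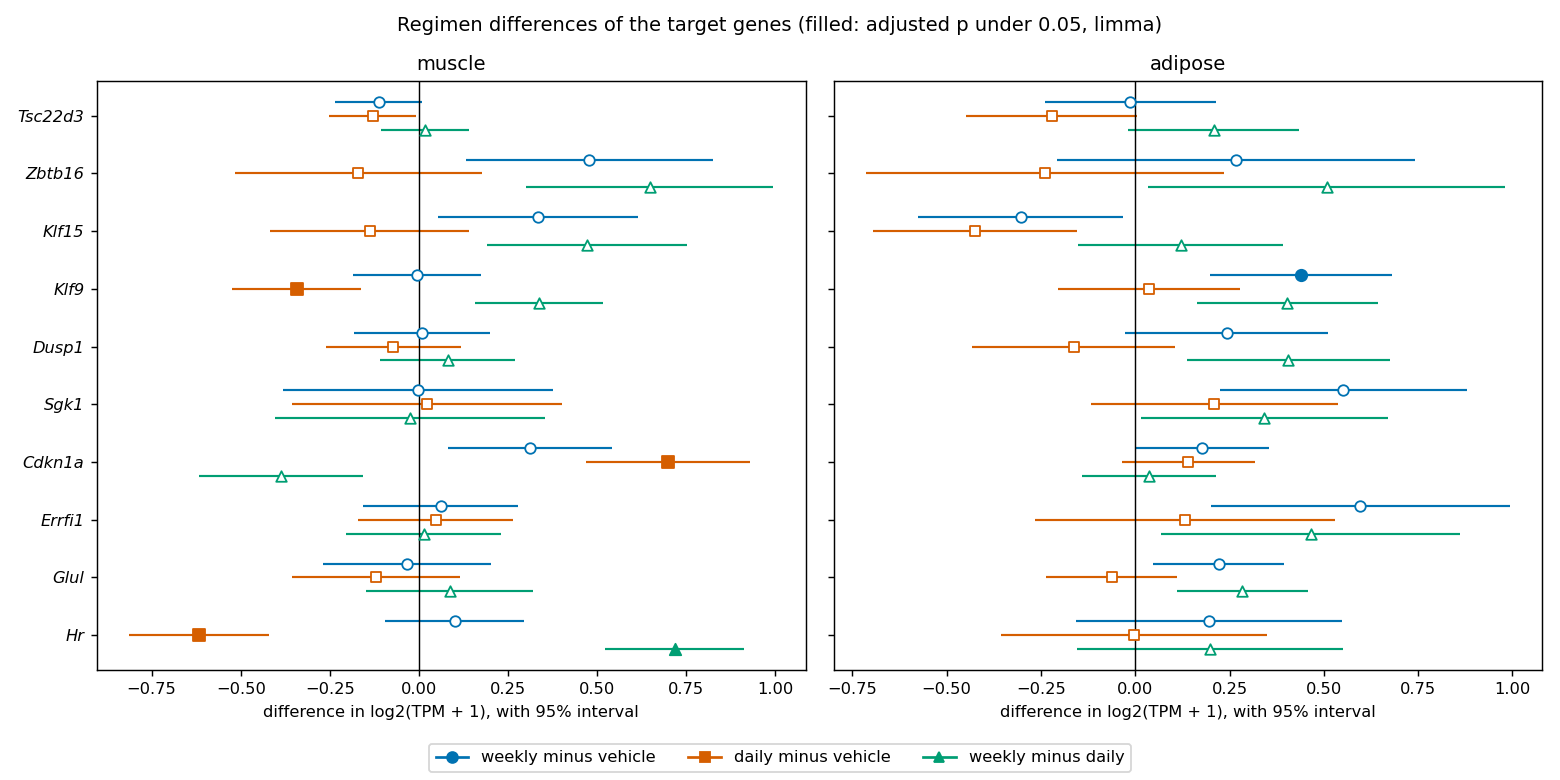
Differences between regimens for each of the 10 genes on the log2(TPM + 1) scale with 95% intervals, in muscle and in adipose tissue, for weekly minus vehicle (circles), daily minus vehicle (squares) and weekly minus daily (triangles). Filled marks, with limma adjusted p under 0.05, are Hr, Cdkn1a and Klf9 for daily minus vehicle and Hr for weekly minus daily in muscle, and Klf9 for weekly minus vehicle in adipose tissue.

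In adipose tissue weekly prednisone raised 1 of the 10 genes, Klf9, with 7.43% of all genes called and 5.72% called as higher. Klf9 read 31.8, 25.4 and 29.4 TPM after weekly, 21.7, 20.8 and 21.9 TPM after daily, and 18.5, 23.6 and 21.0 TPM after vehicle. The weekly libraries were the 3 highest. The rise relative to vehicle was 0.44 (SE 0.11, limma adjusted p = 0.0423). It did not pass without weekly 1 (0.117), weekly 3 (0.115), vehicle 1 (0.1002) or vehicle 3 (0.111), where the size over all single libraries left out was 0.35 to 0.53. Nor did it pass without the third libraries, at 0.43 (0.343), with the replicate number as a block (0.0673), with no filter on low values (0.0824) or with the most abundant transcript in place of the gene (0.147). Without the 3 libraries high in muscle transcripts it was 0.58 (limma adjusted p = 0.0404), a value that rests on weekly 1 alone, the highest library.

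Another 3 genes stood higher after weekly than after vehicle in every adipose library without passing. Sgk1 read 33.8, 22.4 and 25.2 TPM after weekly, 19.6, 22.3 and 20.8 TPM after daily, and 20.8, 16.4 and 16.8 TPM after vehicle, a weekly difference of 0.55 (SE 0.15, limma adjusted p = 0.0501). Errfi1 (chromosome 4, 150853919 to 150868892, plus strand) read 24.1, 22.3 and 22.6 TPM after weekly, 13.6, 23.4 and 13.8 TPM after daily, and 13.4, 15.5 and 15.9 TPM after vehicle (0.60, SE 0.18, limma adjusted p = 0.0660). Daily 2, one of the libraries high in muscle transcripts, was the daily library that stood apart for Errfi1. Glul read 268, 278 and 272 TPM after weekly, 221, 243 and 209 TPM after daily, and 212, 253 and 238 TPM after vehicle (0.22, SE 0.08, limma adjusted p = 0.0954). Cdkn1a did not overlap either, at 150.0 to 174 TPM after weekly and 138 to 149.7 TPM after vehicle. With Klf9 that made 5 of the 10, against 35.4% of all genes. Without weekly 2, weekly 3 and daily 2 the differences were 0.88 for Sgk1 and 0.66 for Errfi1, each from weekly 1 alone, which was the highest weekly library of both genes.

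Klf15 went the other way in fat, with 22.4, 25.6 and 24.4 TPM after weekly, 22.2, 21.2 and 22.9 TPM after daily, and 24.2, 33.0 and 33.8 TPM after vehicle. The difference from vehicle was -0.30 after weekly (SE 0.12, limma adjusted p = 0.128) and -0.42 after daily prednisone (SE 0.12, limma adjusted p = 0.332). Vehicle 1 stood apart from the other 2 vehicle libraries, and without it the weekly difference was -0.45 and passed (limma adjusted p = 0.0319). It also passed under TMM scaling, at -0.44 (limma adjusted p = 0.0463). Daily prednisone changed 0 of the 10 genes in adipose tissue, where limma called 0.00707% of all genes (1 gene), and at an unadjusted p under 0.05 the counts were 1 of the 10 and 1305 of 14150. Klf15 was the 1 gene whose daily and vehicle libraries did not overlap, as they did not in 15.6% of all genes. Tsc22d3 in fat read 102, 94.7 and 98.3 TPM after weekly, 78.6, 96.8 and 80.4 TPM after daily, and 87.0, 109.5 and 102 TPM after vehicle, with wide overlap.

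All 10 genes stood higher in weekly than in daily adipose tissue by their means, and limma called none of them (0.311% of all genes called). At an unadjusted p under 0.05 there were 6 of the 10 and 2242 of 14150. The direction was common to the libraries, with 74.3% of all genes above 0. The median of the 10 was 0.31, against 0.12 over all genes. Under TMM scaling, which moved the median of all genes by -0.12, 8 of the 10 were above 0. The median of the 10 was then 0.18, against -0.01 over all genes. The same scaling moved the median of weekly minus vehicle by -0.13 and that of the weekly tissue difference by 0.19. The weekly minus vehicle median of the 10 was 0.23 before and 0.09 after it, and that of all genes 0.13 before it. Dusp1 (chromosome 17, 26505590 to 26562128, minus strand) read 57.3, 74.9 and 71.9 TPM after weekly, 49.9, 57.2 and 45.9 TPM after daily, and 53.5, 63.8 and 54.1 TPM after vehicle (weekly minus daily 0.41, SE 0.12, limma adjusted p = 0.208). Zbtb16 read 14.5, 12.3 and 13.3 TPM after weekly, 10.6, 6.75 and 10.4 TPM after daily, and 7.60, 13.4 and 12.7 TPM after vehicle (0.51, SE 0.21, limma adjusted p = 0.292). These genes, Klf9, Sgk1 and Glul did not overlap between the regimens, so 5 of the 10, against 25.5% of all genes. Markers of other cell types were also higher in some weekly fat libraries. Endothelial genes summed to 331, 239 and 273 TPM after weekly, 180 to 225 TPM after daily and 211 to 224 TPM after vehicle. Mesothelial genes summed to 64.3, 114 and 99.7 TPM after weekly, 44.9 to 55.8 TPM after daily and 42.4 to 67.9 TPM after vehicle, so that weekly 1 lay among the vehicle libraries and the 2 high values were those of libraries high in muscle transcripts. Fibroblast genes summed to 1940, 1623 and 1744 TPM after weekly, 1250 to 1557 TPM after daily and 1259 to 1305 TPM after vehicle. Limma called 0 of 5 endothelial, 2 of 4 mesothelial and 3 of 5 fibroblast genes as higher after weekly than after vehicle. Of all genes, 5.72% were called as higher there. Under TMM scaling the counts of these markers were 0, 0 and 2, and without the third libraries 0 each. Between weekly and vehicle fat 1 of 6 macrophage genes was called as higher (Lyz2) and 1 of 5 lymphocyte genes as lower (Cd3g). Under TMM scaling Cd3g passed and Lyz2 did not (limma adjusted p = 0.0264 and 0.155). Without the third libraries neither did (0.328 and 0.326). Between weekly and daily fat the endothelial, mesothelial and fibroblast counts were 0, 0 and 1. At an unadjusted p under 0.05 they were 5, 3 and 2. The part of these markers in the levels of the 10 genes was not tested.

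Whether the tissues answered differently was tested on the muscle minus adipose values of the mice. For the daily effect limma called 0 of the 10 (0.0511% of all genes, 6 genes), with 3 of the 10 and 1618 of 11737 at an unadjusted p under 0.05. The sizes were 0.56 for Cdkn1a (SE 0.14, limma adjusted p = 0.178), -0.61 for Hr and -0.38 for Klf9 (limma adjusted p = 0.209 for both). For the weekly effect it called 0 of the 10 (2.78% of all genes), with 4 of the 10 and 3294 at an unadjusted p under 0.05. Klf9 came nearest, at -0.45 (SE 0.11, limma adjusted p = 0.0563), followed by Sgk1 at -0.55 (0.0720) and Klf15 at 0.64 (0.0772). With a pseudocount of 5 in place of 1 Klf9 passed (-0.38, limma adjusted p = 0.0378), which it did in no other alternative run.

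Single transcripts were then followed. The table held 46 transcripts of the 10 genes, all matched by identifier to the GENCODE vM21 annotation, 42 of them in the same version, and transcript values are estimates that share reads. In muscle 31 passed the filter, and 4 were called after daily prednisone relative to vehicle, where 5.64% of all transcripts were called. Cdkn1a-201, which held nearly all of the gene, was higher (0.72, limma adjusted p = 0.0142) and Hr-201 lower (-0.46, limma adjusted p = 0.0294). The other two belong to genes that were not called as a whole. Tsc22d3-203, a protein-coding form, read 19.9, 20.2 and 18.6 TPM in daily muscle, against 25.4, 28.2 and 25.9 TPM in vehicle muscle, with no overlap (-0.42, limma adjusted p = 0.0276), while the main form Tsc22d3-201 averaged 80.0 ± 6.51 TPM in daily and 85.3 ± 4.67 TPM in vehicle muscle (SD, n = 3) and was not called (-0.09, limma adjusted p = 0.472). Dusp1-203, annotated as a retained intron, averaged 6.51 ± 0.63 TPM in daily and 9.12 ± 0.39 TPM in vehicle muscle (-0.43, limma adjusted p = 0.0470). Between weekly and daily muscle Hr-201 was called (0.62, limma adjusted p = 0.0450), with 0.332% of all transcripts called. Between weekly and vehicle muscle 0 of the 31 were called, with 0.0249% of all transcripts called. There 2 of the 31 had an unadjusted p under 0.05, and the share of all transcripts at that threshold was not computed. Without the third libraries none of these transcript calls passed, with limma adjusted p of 0.219 to 0.296 for the 4 of daily against vehicle and 0.658 for Hr-201 between the regimens.

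In adipose tissue limma called 0 of 26 transcripts between weekly and vehicle, daily and vehicle or weekly and daily, where it called 0.0855%, 0.00276% and 0.00827% of all transcripts. At an unadjusted p under 0.05 there were 7, 2 and 7 of the 26. The shares of all transcripts at that threshold were not computed. The form Tsc22d3-201 had 58.9 to 61.4 TPM after weekly, 38.6 to 43.3 TPM after daily and 44.4 to 58.6 TPM after vehicle (weekly minus daily 0.56, limma adjusted p = 0.276). The lowest weekly library lay just above the highest vehicle one, and the highest daily library just below the lowest vehicle one. The share of all transcripts with groups apart in this way was not computed. Daily 2 had 27.0 TPM of the non-coding Tsc22d3-202, where the other daily libraries had 9.01 and 10.6 TPM. The tissues used the forms in different shares. Tsc22d3-201 made up 73.7% of the gene in vehicle muscle and 52.6% in vehicle fat, and Sgk1-201 81.9% and 58.7%. Sgk1-202, whose start is nearer to the inverted repeat printed above, had 3.94% of the gene in vehicle muscle and 21.4% in vehicle fat, where it read 6.20 ± 1.22 TPM after weekly, 4.83 ± 0.28 TPM after daily and 3.71 ± 1.44 TPM after vehicle (SD, n = 3) and was not called.

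**Figure D4:**
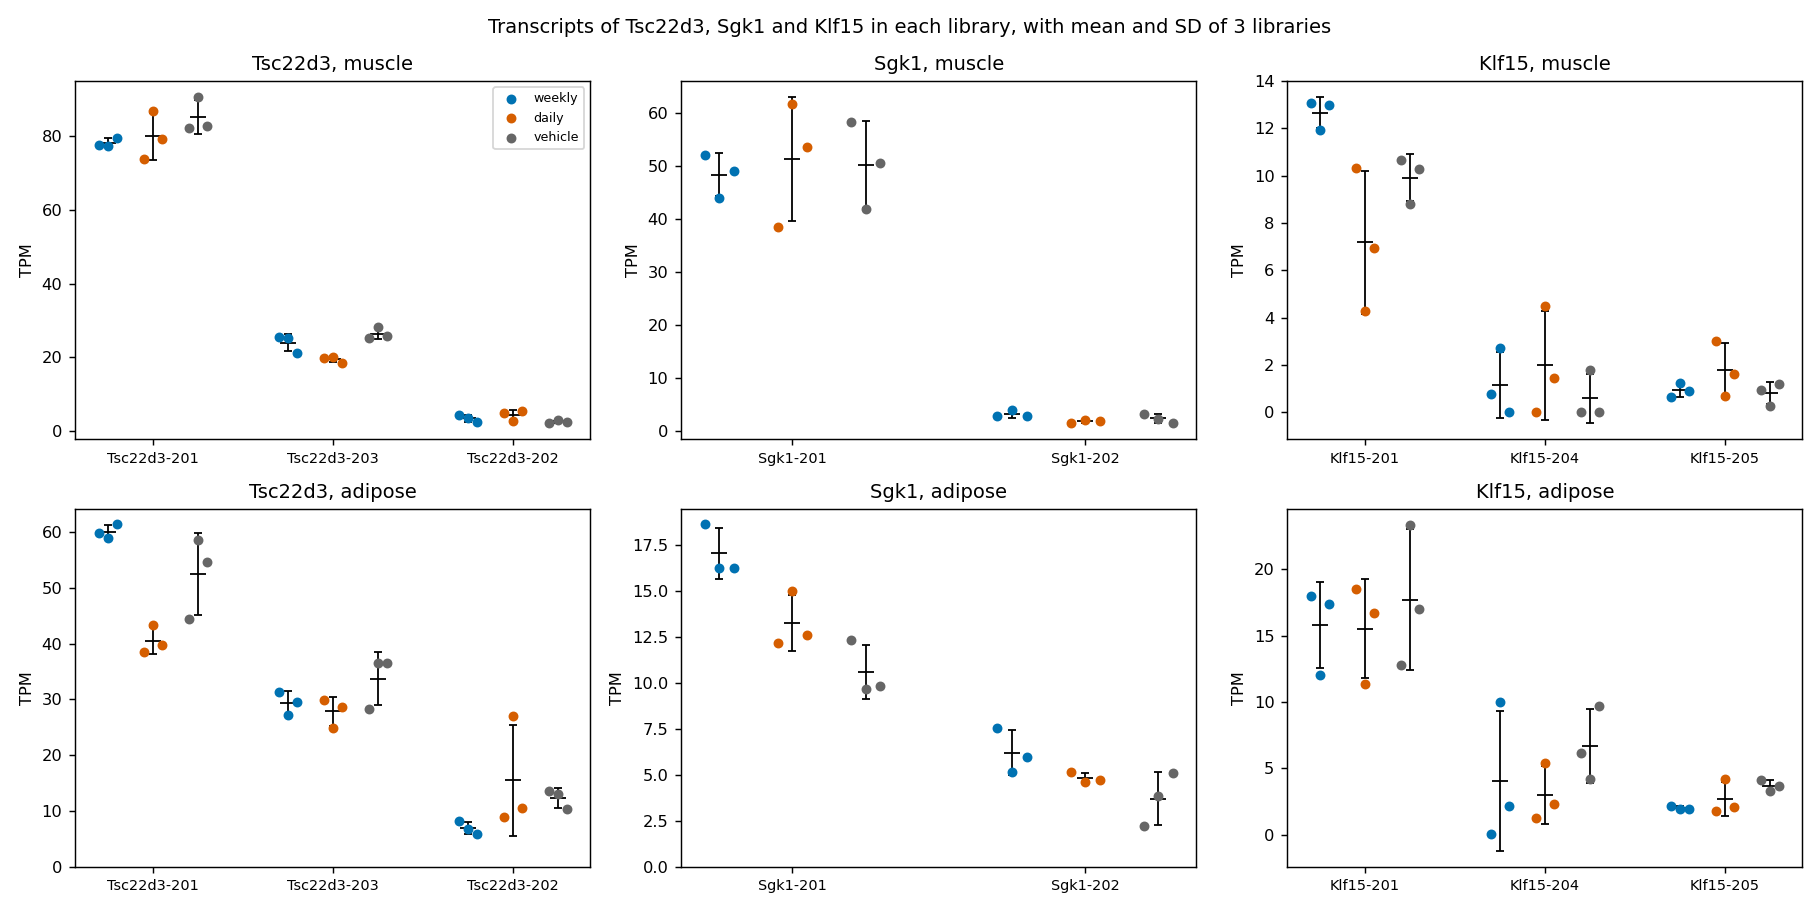
TPM of the leading transcripts of Tsc22d3, Sgk1 and Klf15 in every library (points) with the mean and SD of 3 libraries, in muscle (upper panels) and adipose tissue (lower panels), by regimen. In muscle the daily libraries of Tsc22d3-203 lie at 18.6 to 20.2 TPM, below the vehicle libraries. In adipose tissue the lowest weekly library of Tsc22d3-201 (58.9 TPM) lies just above the highest vehicle library (58.6 TPM), and the transcript was not called.

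Another 28 genes listed as targets of the receptor were called in both directions in muscle. In daily against vehicle muscle 3 of 28 rose and 6 fell, where 1.91% of all genes were called as higher and 11.8% as lower. The median of the 28 was -0.05. Under TMM scaling it was 0.04, with 3 risers and 4 falls. Without the third libraries limma called 0 of the 28 in every comparison. The risers were Fkbp5, a chaperone that damps the receptor (0.49), the metallothionein Mt2 (1.24) and Trim63, a ubiquitin ligase of muscle wasting (0.47). Fkbp5 averaged 10.6 ± 2.22 TPM in daily and 7.17 ± 0.11 TPM in vehicle muscle, and Trim63 averaged 192 ± 10.6 TPM in daily and 138 ± 6.05 TPM in vehicle muscle (SD, n = 3). Those that fell were the transcription factors Bcl6 (-0.66) and Cebpb (-0.65), then Crispld2 (-0.53), Pik3r1 (-0.49), Acsl1 (-0.27) and Tgm2 (-0.23). In weekly against vehicle muscle Trim63 alone rose (0.43), where 0.049% of all genes were called. Bcl6 (0.48) and Crispld2 (0.49) were higher in weekly than in daily muscle, where 0.915% of all genes were called as higher. The medians of the 28 in these comparisons were -0.05 and 0.07. In adipose tissue, with 27 tested, Fkbp5 rose after weekly prednisone, to 16.1 ± 1.01 TPM, against 11.6 ± 0.71 TPM after vehicle (SD, n = 3; 0.45, limma adjusted p = 0.0232), a call lost under TMM scaling (0.31, limma adjusted p = 0.0649), without the third libraries (0.36, 0.346) and with weekly 1 as the single weekly library (0.38, 0.0796). Fkbp5 was the 1 gene of the 27 called there, where 5.72% of all genes were called as higher. TMM scaling turned the count of the 27 to 0 higher and 3 lower, Acsl1, Angptl4 and Ddit4. The median of the 27 was 0.16, or 0.02 under TMM scaling. For daily against vehicle limma called 0 of the 27, with 0.00707% of all genes called. At an unadjusted p under 0.05 there were 5 of the 27 and 1305 of 14150, and the medians were 0.07 and 0.01. For weekly against daily it called 0 of the 27, with 0.311% of all genes called. There 10 of the 27 and 2242 of 14150 had an unadjusted p under 0.05. The median of the 27 was 0.06 (-0.07 under TMM scaling), against 0.12 over all genes (-0.01 under TMM scaling).

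**Figure D5:**
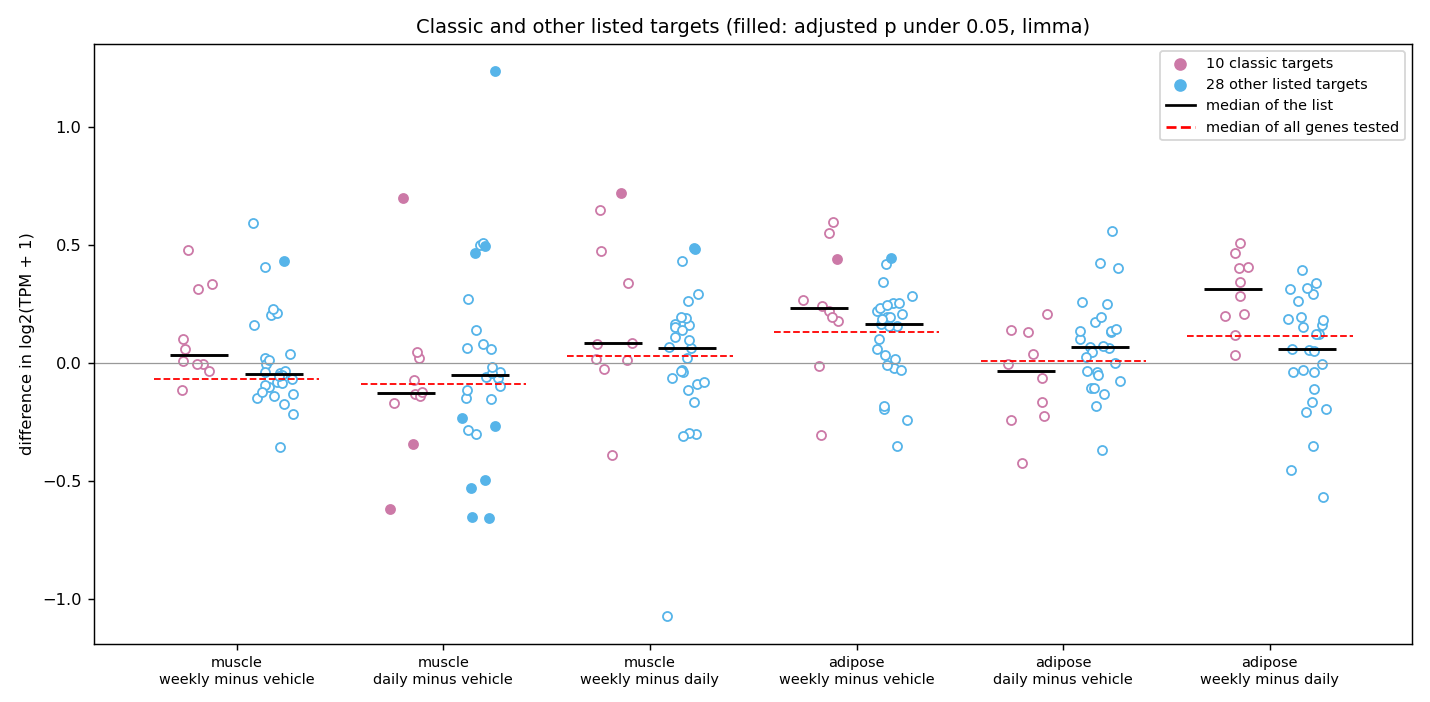
Differences on the log2(TPM + 1) scale for the 10 classic and the 28 other listed targets in 6 regimen comparisons. Black bars are the median of each list and dashed lines the median of all genes tested, and filled points passed limma at an adjusted p under 0.05. In daily minus vehicle muscle both lists have points on either side of 0.

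Of the 3 genes of the receptors and steroid activation tested, 2 were called lower in daily than in vehicle muscle, both receptor genes, where 11.8% of all genes were. The activating enzyme gene Hsd11b1 was not called there, at -0.31 with an unadjusted p under 0.05, as 3676 of 12246 genes had. It was called lower in weekly than in vehicle fat, where 7.43% of all genes were called. In daily muscle Nr3c1 fell by 0.26 relative to vehicle (limma adjusted p = 0.0478) and Nr3c2, the mineralocorticoid receptor, by 0.36 (limma adjusted p = 0.0330), with 14.3, 12.8 and 12.8 TPM of Nr3c1 in daily and 15.8, 15.9 and 16.5 TPM in vehicle muscle. Neither passed under TMM scaling (limma adjusted p = 0.173 for Nr3c1 and 0.0985 for Nr3c2) or without the third libraries (0.386 for Nr3c1 and 0.291 for Nr3c2). Hsd11b1 fell in weekly adipose tissue relative to vehicle, to 61.3 ± 5.77 TPM, against 96.5 ± 6.38 TPM (SD, n = 3; -0.65, limma adjusted p = 0.00648), and did so under TMM scaling (-0.79, limma adjusted p = 0.00268) but not without the third libraries (-0.64, 0.261). With weekly 1 as the single weekly library it was -0.51 (limma adjusted p = 0.0253). The weekly effect on Hsd11b1 was called as different between the tissues (muscle minus adipose 0.69), where 2.78% of all genes were called. It was not called under TMM scaling (limma adjusted p = 0.0903) or without the third libraries (0.338). Hsd11b2, which inactivates the steroids, was under the filter in both tissues. The immediate early genes are a class of rapid stress and growth response to which Dusp1 also belongs. Of 10 tested, 1 was higher in daily than in vehicle muscle, Junb (0.77), where 1.91% of all genes were called as higher. Fos (0.71) and Zfp36 (0.39) were higher in weekly than in vehicle fat. That was 2 of 12, where 5.72% of all genes were called as higher, and 0 of 12 under TMM scaling. Without the third libraries none of the 3 passed (limma adjusted p = 0.182 for Junb, 0.306 for Fos and 0.328 for Zfp36), and with weekly 1 as the single weekly library Fos was at 0.91 (0.0375) and Zfp36 at 0.46 (0.0289). In muscle their sum was 162 to 178 TPM after weekly, 178 to 224 TPM after daily and 182 to 203 TPM after vehicle, and in fat 270 to 311 TPM after weekly, 238 to 259 TPM after daily and 229 to 243 TPM after vehicle. Their part in the levels of Dusp1 was not tested.

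Over the 9 muscle libraries, Hr and Klf9 had similar profiles (Pearson r = 0.94), and Cdkn1a ran against Klf9 (r = -0.89). In fat Dusp1 and Glul were the closest pair (r = 0.89), then Errfi1 and Glul (r = 0.84). Among 7315 muscle genes with a mean of at least 5 TPM, the profiles most like Hr were those of Cuedc1 (0.98), Trip10 (0.97) and Ulk1 (0.97). For Klf9 they were Klhl21 (0.99), Ndel1 (0.98) and Lynx1 (0.98), and for Cdkn1a Tceal8 (0.96), Tpt1 (0.94) and the pseudogene Rpl10a-ps1 (0.93), whose reads can be shared with its parent gene. These are descriptions over 9 libraries that include the regimen differences and share the fixed sum of TPM.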

How the data were processed

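Trizol and RNeasy columns were used for RNA and the mRNA libraries were stranded, per the labels' protocols. The authors deposited TPM for 105129 Ensembl transcripts in 18 libraries. The tools named are Trimmomatic, HISAT2 and kallisto with mm10, per the submitters' processing notes, and their versions are not given in the sources used here.

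TPM was summed by gene symbol and tested as log2(TPM + 1) with limma 3.58.1 in R 4.3.3 (trended eBayes) over genes with at least 1 TPM in 3 of the 9 libraries of a tissue, with Benjamini-Hochberg adjustment at 0.05. The 3 regimens of a tissue shared one fit. Tissues were compared on the muscle minus adipose values of the mice, matched by the number in the labels; after removal of group means these pairs correlated little (median r 0.046, from -0.10 to 0.15). The fit was tested on simulated data. Same-numbered libraries of different regimens did not deviate together (median r -0.03 in muscle, 0.03 in adipose tissue), so the number was not used as a block.

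The 10 genes, 5 gene lists (other receptor targets, receptor and steroid activation, immediate early, p53 and muscle regeneration genes), 7 marker lists and the tests were chosen with earlier results of these data known. Named genes are the 10, called list members and, for called genes, the 3 most similar profiles. Lymphocyte markers summed to under 1.35 TPM in muscle and to 9.45 to 21.3 TPM in adipose tissue. Positions are GRCm38 from GENCODE vM21 and promoters RefSeq's. Versions were Python 3.11.15, pandas 2.3.3 and matplotlib 3.10.9.

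Alternatives were TMM scaling within each tissue, pseudocounts of 0.1 and 5, no filter, the replicate number as a block and leaving out libraries. Chosen after seeing the data were the most abundant transcript of each gene and transcripts without the third libraries.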

Additional observations from a re-analysis of the deposited data

How the results depend on the processing

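In none of the alternatives run did a called difference of the 10 genes change sign. Leaving out the third libraries leaves 2 libraries per group. TMM scaling gave 813 genes called for daily against vehicle muscle (1674 reported; lower calls 54.9% in place of 86.0%), 2 of the 10 for weekly against vehicle fat (Klf15 added; lower calls 59.0% in place of 23.1%), 14 genes for weekly against daily fat (44 reported) and 0 for the tissue difference of the weekly effect (326 reported); in weekly against daily muscle lower calls were 65.2% in place of 48.4%. A pseudocount of 0.1 gave 0 genes for daily fat against vehicle, 2 for the tissue difference of the daily effect and 177 for that of the weekly effect. A pseudocount of 5 gave 0, 24 and 657, with 1 of the 10 (Klf9, -0.38, adjusted p = 0.0378). Without a filter there were 0 genes for weekly against vehicle muscle, 291 genes and 0 of the 10 for weekly against vehicle fat, 8 for weekly against daily fat, and 14 and 27 for the tissue differences. With the replicate block, a pairing the data did not show, the genes called were 0 for weekly against vehicle muscle, 100 for weekly against daily muscle, 0 for daily against vehicle fat, 12 for weekly against daily fat, and 0 for both tissue differences, and Klf9 in fat was lost (0 of the 10; adjusted p = 0.0673). Without the third libraries 7, 0 and 9 genes were called in muscle, for daily and weekly against vehicle and for weekly against daily, and in fat 0, 1 and 0, 0 for both tissue differences, and 0 of the 10 anywhere among the regimens. Without weekly 2, weekly 3 and daily 2 of fat, 7, 2205 and 14 genes were called in fat, 2 and 4 for the tissue differences, and 3 of the 10 for weekly against vehicle. With the most abundant transcript 0 of the 10 were called there. Leaving out 1 library at a time gave, for genes and for the 10, 506 to 1647 and 2 to 3 in daily against vehicle muscle (506 without daily 3, 879 without vehicle 2, 970 without vehicle 1), 0 to 1 and 0 in weekly against vehicle muscle, 32 to 249 and 1 to 2 in weekly against daily muscle, 0 to 14 and 0 in daily against vehicle fat, 65 to 1257 and 0 to 2 in weekly against vehicle fat (65 without weekly 3 or vehicle 3), 2 to 33 and 0 to 1 in weekly against daily fat, 0 to 4 and 0 for the daily and 0 to 204 and 0 to 1 for the weekly tissue difference, and 9722 to 9934 and 7 between tissues of vehicle mice. The cause of these changes was not tested. TPM keeps no counts, so depth and counting error are unknown.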
